A study of Mus musculus with 10 samples.

Results

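Natural killer (NK) cells sorted from mouse spleen and lysed without stimulation were compared with bulk splenocytes, the mixed cells of the whole spleen, on Affymetrix MOE430_2 arrays. The comparison used the 3 arrays labelled as resting NK cells and the 4 labelled as resting bulk splenocytes, 7 of the 10 arrays of the series. The other 3 arrays came from NK cells after 24 h in 100 ng/mL of IL-15. They entered the estimate of the spread, the choice of a gene's probe set, the floor given below and some alternatives. Some of their values are given at the end. NK cells came from wild-type C57Bl/6 mice and had been flow sorted on NK1.1 as present and CD3 as absent. The labels of the splenocyte samples give no strain of their own. Neither group was cultured, and neither carries an added allele or agent. The design text of the series describes the 3 resting NK arrays as biological replicates and the 4 splenocyte arrays as 2 biological samples with 2 chips each. The labels do not say which chips belong together, nor how many mice stand behind a sample. NK RNA was amplified in 2 cycles and splenocyte RNA in 1, so the amplification and the cell type cannot be told apart in any difference given here.

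NK cells are innate lymphocytes that destroy virus-infected and tumour cells without prior sensitisation. They release perforin and granzymes from granules, secrete interferon gamma and chemokines, and read their targets through activating and inhibitory receptors that signal through adaptor proteins. Whole spleen is mostly B and T lymphocytes, with macrophages, neutrophils, dendritic cells, erythroid precursors and platelets, and it contains NK cells too. A difference between the groups is therefore one between a sorted population and a mixture that includes it. In such bulk samples, fewer cells of a type and less RNA per cell cannot be told apart.

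The label of the sort was checked on markers. The deposited table held 45101 probe sets and 18193 genes with a probe set of their own, of which 12938 genes were tested. Ncr1, the NK receptor NKp46, gave signals of 10332, 8967 and 12824 on resting NK arrays 1, 2 and 3 and 1909, 1705, 1569 and 2091 on the 4 splenocyte chips. The groups did not overlap, and Ncr1 was 5.86-fold higher in resting NK cells (log2 difference 2.55 ± 0.24 SE, n = 3 resting NK arrays and 2 splenocyte samples, as in every value below with no other setting named, limma adjusted p = 1.1e-04). Cd3e, an invariant chain of the T-cell receptor complex, gave 189, 33.7 and 55.8 on the resting NK arrays and 6278, 6714, 8840.4 and 6751 in splenocytes. Signals below a floor of 179.85 units were set to it, and Cd3e, above it on 1 of 3 resting NK arrays, was at least 38.7-fold lower (limma adjusted p = 2.2e-06). CD3 was one of the sorted markers, so Cd3e serves here as a check of the sort. "At least" is written wherever an array of the dimmer group lay at the floor. Klrb1c, which encodes NK1.1, is not analysed here, since no probe set is its own.

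**Figure D1:**
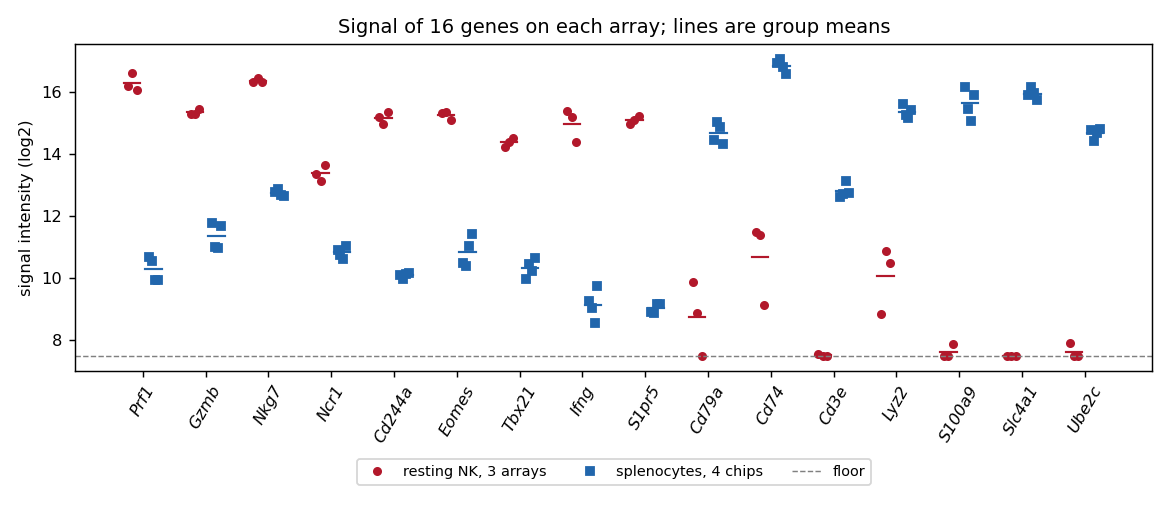
Signal of 16 genes on each array (log2 of the deposited signal, set to the floor where lower), with 3 resting NK arrays as red circles, 4 splenocyte chips as blue squares, short lines for group means and a dashed line for the floor. The 9 genes from Prf1 to S1pr5 lie higher on every resting NK array than on any splenocyte chip and the 7 from Cd79a to Ube2c lower, and Cd79a, Cd74 and Lyz2 spread widely over the resting NK arrays.

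The arrays differed in ways that bear on the results. Probes at the 3-prime end of the Gapdh control read 5.88 to 9.54 times the 5-prime ones on resting NK arrays and 1.0 to 1.39 times on splenocyte chips, and for Actb the ratios were 2.27 to 6.51 and 1.34 to 1.59. The median absolute log2 difference between pairs of arrays was 0.34 to 0.43 among resting NK and 0.24 to 0.32 among splenocyte arrays. Resting NK replicate 3 stood apart from replicates 1 and 2. Xist, the RNA that silences an X chromosome in female cells, gave 65862, 56009.9 and 1144 on replicates 1, 2 and 3, and Eif2s3y, a gene of the Y chromosome, gave 93.3, 8.1 and 13341. Splenocyte chips gave 36749 to 53970 for Xist and 37.6 to 164 for Eif2s3y. The labels give no sex. The median B-cell marker was at 11.7%, 10.9% and 2.34% of its splenocyte level on replicates 1, 2 and 3, and the median immediate-early gene at 232%, 235% and 87.8%. Where leaving out 1 resting NK array moved a printed fold by over 1.5 times, the fold without that array is given beside it.

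Of the 12938 genes tested, 38.6% passed an adjusted p under 0.05 in limma, 17.1% (2212 genes) higher and 21.5% (2781 genes) lower in resting NK cells. Every list count below is to be read beside these shares. Differences of at least 2-fold were found for 1411 higher and 2082 lower genes, and of at least 8-fold for 108 higher and 354 lower genes. The large differences thus lay more often on the lower side, where 346 genes were at the floor on all 3 resting NK arrays. Only 51 of the higher genes were at the floor on all 4 splenocyte chips. The filter bears on these counts. A gene at the floor on all 4 splenocyte chips was tested only if above it on all 3 resting NK arrays. One at the floor on all 3 resting NK arrays needed only 3 of the 4 chips above it. The filter also fixed the direction of such genes. Groups did not overlap in 2195 of the higher and 2687 of the lower genes, against 49.7% of all genes tested. The median log2 difference of all genes tested was -0.06. With a gene's probe sets summarised by their median signal on each array, 1520 genes were higher and 2923 lower. Such a summary can rest on different probe sets in the groups, and is not the median of the probe sets' differences. With quantile normalization, which moved the median of all genes by 0.11 to 0.05, 2518 were higher and 2446 lower. The split of calls between higher and lower, 44.3% higher as reported, was 34.2% and 50.7% in these settings.

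**Figure D2:**
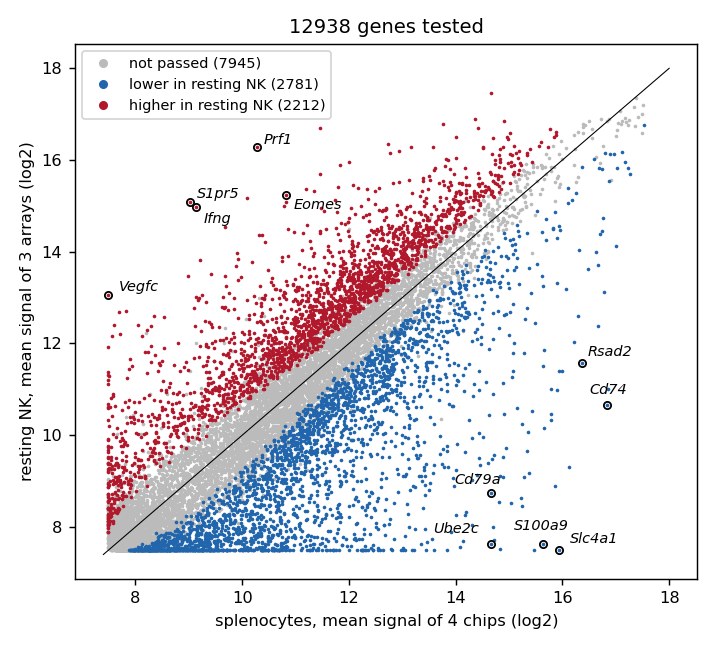
Mean log2 signal of 12938 tested genes on the 4 splenocyte chips (x axis) and the 3 resting NK arrays (y axis), with genes higher in resting NK cells in red (2212), lower in blue (2781) and not passed in grey (7945), and a line of equal signal. Prf1, S1pr5, Ifng, Eomes and Vegfc lie farthest above the line among the labelled genes, and Slc4a1, S100a9 and Ube2c lie near the floor in resting NK cells.

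Genes of the cytotoxic granule were mostly higher in resting NK cells. Of 21 tested, 18 were higher, 1 lower and 2 did not pass, with a median log2 difference of 1.70 against -0.06 for all genes. Prf1, perforin, which forms pores in the target membrane, gave 74072, 99359 and 68392 on the resting NK arrays and 1631, 1508, 980.5 and 977 on the splenocyte chips. It was 64.2-fold higher (log2 difference 6.00 ± 0.25 SE, limma adjusted p = 2.3e-06), while its other tested probe set was dim and lower by a log2 difference of -0.74 (limma adjusted p = 0.023). The 3 resting NK values of the brighter probe set lay far above all 4 chips. Gzmb, granzyme B, a protease that starts apoptosis in the target, gave 39432, 40083 and 44110.3 against 3465, 2020.2, 1995 and 3267 and was 15.8-fold higher (limma adjusted p = 1.3e-05). Gzma, granzyme A, gave 155941, 224872 and 170205 against 35063, 23156, 19539 and 28103, a 7.02-fold difference (limma adjusted p = 5.7e-05). On the resting NK arrays the brightest probe set read 177504 to 270301. Gzma thus lay near the top of the scale there, and whether its difference was compressed was not tested. Nkg7, a granule membrane protein, gave 80451, 89426 and 82028 against 7018, 7522, 6549.7 and 6314, with little spread in either group, and was 12.3-fold higher (limma adjusted p = 2.1e-06). Fasl, the death ligand of the Fas receptor, was 16.1-fold higher.

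Other granule members had smaller or opposite differences. Ctsw, a cathepsin of cytotoxic lymphocytes, was 6.95-fold higher and Serpinb9, the inhibitor that protects the killer cell from its own granzyme B, 6.76-fold higher. Gzmm and Gzmk, granzymes M and K, were higher by 1.30 and 1.33 on the log2 scale. On resting NK replicate 3 alone, 1 array, the differences were smaller, at 1.09 and 0.97. Srgn, serglycin, the proteoglycan that packs granule proteins, was the lower member, at 33813, 55053 and 25039 in resting NK cells and 82009, 76677, 71666 and 67665 in splenocytes (log2 difference -1.05, limma adjusted p = 0.032). The Srgn groups did not overlap, yet without resting NK replicate 1 or without replicate 3 it did not pass (limma adjusted p = 0.079 and 0.069). Lamp1, a lysosomal membrane protein, and Tnfsf10, the death ligand TRAIL, differed by 0.34 and 0.32 and did not pass. Gzmc, granzyme C, was above the floor on 2 of 3 resting NK arrays and on no splenocyte chip, too few to be tested.

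The 250 bases before the transcription start of granule genes and of Ncr1 are shown because these genes were higher together. They were searched for the RUNX letters TGTGGT and the T-box letters AGGTGT, short sequences bound by families of transcription factors that act in NK cells, on both strands. Sequences are from RefSeq on build GRCm38.p6 and run 5′ to 3′ toward the gene, with TGTGGT or its other strand, ACCACA, in capitals.
Prf1 (chr10:61297586-61297835, plus strand): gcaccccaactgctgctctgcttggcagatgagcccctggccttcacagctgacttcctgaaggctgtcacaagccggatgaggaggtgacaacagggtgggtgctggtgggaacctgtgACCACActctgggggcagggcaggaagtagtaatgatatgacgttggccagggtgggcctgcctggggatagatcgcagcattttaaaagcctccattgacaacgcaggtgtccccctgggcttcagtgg
Gzmb (chr14:56262335-56262584, minus strand): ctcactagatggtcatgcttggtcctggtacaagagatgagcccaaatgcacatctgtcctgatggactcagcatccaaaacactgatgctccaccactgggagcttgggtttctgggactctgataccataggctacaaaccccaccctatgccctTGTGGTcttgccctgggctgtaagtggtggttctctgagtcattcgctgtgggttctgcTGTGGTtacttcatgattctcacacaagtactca
Gzma (chr13:113100982-113101231, minus strand): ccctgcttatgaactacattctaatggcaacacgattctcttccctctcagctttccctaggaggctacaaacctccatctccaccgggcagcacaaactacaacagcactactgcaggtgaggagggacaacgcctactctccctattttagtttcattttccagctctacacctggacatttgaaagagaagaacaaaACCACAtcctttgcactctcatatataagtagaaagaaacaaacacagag
Nkg7 (chr7:43436888-43437137, plus strand): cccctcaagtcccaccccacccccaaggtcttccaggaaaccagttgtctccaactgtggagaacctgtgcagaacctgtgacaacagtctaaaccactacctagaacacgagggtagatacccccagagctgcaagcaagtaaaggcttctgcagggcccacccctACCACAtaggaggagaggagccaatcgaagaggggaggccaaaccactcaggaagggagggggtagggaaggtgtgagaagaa
Ncr1 (chr7:4337465-4337714, plus strand): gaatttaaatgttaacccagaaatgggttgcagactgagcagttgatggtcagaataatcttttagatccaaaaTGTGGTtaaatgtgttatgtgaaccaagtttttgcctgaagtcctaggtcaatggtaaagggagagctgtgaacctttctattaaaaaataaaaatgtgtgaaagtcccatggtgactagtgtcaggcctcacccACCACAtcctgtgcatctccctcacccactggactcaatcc
Ncr1 and Gzmb hold the letters at 2 places and the other genes at 1. These 5 were chosen after their promoters had been searched. TGTGGT was in 7 of 18 promoter windows of the 16 higher granule genes that have one, in 10.7% of the windows of all higher genes, in 11.5% of those of lower genes and in 11.4% of those of all genes tested. AGGTGT was in 5 of the 18 granule windows, those of Gzma, Gzmk, Nkg7, Prf1 and Rab27a, and in 10.1% of all. TGTGGT was also in 8 of 18 windows of higher NK receptor genes and in 5 of 22 windows of lower B-cell markers, and AGGTGT in 0 of those 18 and in 4 of those 22. Windows of 1 gene overlap where it has several starts. The octamer ATGCAAAT was in 0 of the 18 and in 1.22% of all windows, and the PU.1 letters GAGGAAGT in 1 of the 18 and in 2.56% of all. A match is a description of letters and shows no binding.

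NK receptor genes had a higher list median than granule genes. Of 21 tested, 15 were higher, 1 was lower and 5 did not pass, with a median log2 difference of 2.87. Klra8, the activating receptor Ly49H, gave 94467, 103384 and 124127 on resting NK arrays and 3112, 2467, 2309.5 and 3448 on splenocyte chips and was 38.1-fold higher (log2 difference 5.25 ± 0.23 SE, limma adjusted p = 2.6e-06). Its probe set is of a kind that can bind related transcripts, and genes of the Ly49 family are alike in sequence, so the assignment to Klra8 is uncertain. Cd244a, the receptor 2B4 for CD48, gave 37279.7, 32072 and 41506 against 1089.8, 1007, 1119 and 1137, a 33.8-fold difference (limma adjusted p = 1.9e-06). Klrb1f and Klrb1b, lectin-like receptors of the NK1.1 family, were 29.0-fold and 24.2-fold higher. Klrd1 and Klrc1 encode the CD94 and NKG2A chains of an inhibitory receptor and were higher by 3.01 and 3.40 on the log2 scale. The other tested probe set of Klrc1 differed by -0.39 and did not pass. Klrg1, an inhibitory receptor of mature NK cells, was 12.5-fold higher, and Klrk1, the activating receptor NKG2D, 3.43-fold.

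The receptors outside this pattern included ones that other splenocytes also carry. Slamf6, an adhesion and signalling receptor of lymphocytes, was lower, at 1074, 635 and 679 in resting NK cells and 6196, 7748, 5229 and 4773 in splenocytes (7.60-fold, limma adjusted p = 2.2e-04). Fcgr3, the Fc receptor CD16 that NK cells share with myeloid cells, gave 5289, 3937 and 2969.6 against 4192, 3852, 3525 and 3195, with overlapping groups (log2 difference 0.11, limma adjusted p = 0.78). Cd226, the activating receptor DNAM-1, differed by 0.23 and did not pass either.

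Signalling genes behind these receptors went in both directions. Of 26 tested, 11 were higher, 6 lower and 9 did not pass, with a median log2 difference of 0.18. Over all genes tested 17.1% were higher and 21.5% lower, so the share of lower members was near that of all genes. Tyrobp, the adaptor DAP12 of activating Ly49 receptors, gave 61733, 128263 and 62874 against 25642, 22436, 22287 and 23234 and was 3.39-fold higher (limma adjusted p = 0.0032). The kinase gene Zap70 was 3.19-fold higher, the kinase gene Txk 4.00-fold and the docking protein gene Dok2 4.05-fold. The adaptor genes Fcer1g, Cd247 and Hcst differed by 0.07, 0.16 and 0.51 on the log2 scale and did not pass. The other 2 probe sets of Cd247 were called in opposite directions, with log2 differences of 1.48 and -3.15 (limma adjusted p = 0.013 and 1.2e-05), and over the median of its probe sets Cd247 was lower (-0.84, limma adjusted p = 0.028). Syk, the kinase that acts beside Zap70, gave 15984, 15047 and 15124 in resting NK cells and 13956, 15621, 16761 and 15388 in splenocytes on its brightest probe set, which overlapped. Its other 3 probe sets were called, at log2 differences of -1.01, -2.06 and 1.42 (limma adjusted p = 0.0034, 0.0011 and 0.0046). The lower genes included Blnk and Btk, parts of B-cell receptor signalling. Blnk, the adaptor of that pathway, gave 1244, 1754 and 107 on resting NK replicates 1, 2 and 3 against 31769.8, 29644, 30422 and 29221 and was at least 41.3-fold lower (limma adjusted p = 0.0014), or 20.5-fold without replicate 3 and at least 63.9-fold without replicate 2. Btk, its kinase, was 17.9-fold lower, at 670.2, 368 and 325 against 5783, 7606, 8434 and 9493. Among the other lower genes, Plcg1, a phospholipase, and Ptpn6, the phosphatase SHP-1 that inhibitory receptors recruit, were 9.90-fold and 4.20-fold lower. The other tested probe sets of Plcg1 and Ptpn6 differed by 0.20 and -0.54 and did not pass. With the median of its probe sets Plcg1 did not pass (limma adjusted p = 0.66). On replicates 1, 2 and 3 the median B-cell marker stood at 11.7%, 10.9% and 2.34% of its splenocyte level, and the part of B cells in these values was not tested.

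Most transcription factors of the NK lineage were higher. Of 24 tested, 15 were higher, 1 lower and 8 did not pass, with a median log2 difference of 1.55. Eomes, a T-box factor of NK development, gave 40658, 41166 and 34866 on resting NK arrays and 1415, 1348, 2075 and 2757 on splenocyte chips and was 21.3-fold higher (log2 difference 4.42 ± 0.24 SE, limma adjusted p = 6.0e-06). Tbx21, T-bet, the related factor of NK maturation, gave 19055, 21262 and 23267 against 991, 1395, 1201 and 1598, a 16.6-fold difference (limma adjusted p = 5.4e-06). Both tested probe sets of Eomes and the 1 of Tbx21 were called higher, and the groups did not overlap for either gene. Prdm1, the repressor Blimp-1, was 8.02-fold higher and Smad3, a mediator of TGF-beta signals, 7.71-fold, but with the median of its probe sets Smad3 did not pass (limma adjusted p = 0.49). Nfil3, needed for NK development, was at least 7.62-fold higher, Zeb2, a factor of late maturation, 5.96-fold, and Id2, an inhibitor of E proteins, 4.19-fold. Irf2 was the lower member, at 752, 1417 and 526 against 4832, 4063, 4305 and 3665 (5.09-fold, limma adjusted p = 0.0044). Ets1, a factor of lymphocyte development, differed by 0.53 and Zbtb16, the factor PLZF of innate T cells, by -0.46, and neither passed, though Ets1 passed in 6 of the alternatives, among them the median of its probe sets (log2 difference 1.01, limma adjusted p = 0.0025), the others giving 0.53 to 0.62.

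Secreted factors split by gene. Of 20 cytokines and chemokines tested, 7 were higher and 7 lower, against 17.1% and 21.5% of all genes. The list median of -0.17 turned to 0.07 under quantile normalization. Ifng, interferon gamma, gave 42491, 36830 and 21218 in freshly lysed NK cells and 606, 518, 374 and 850.3 in splenocytes and was 57.2-fold higher (log2 difference 5.84 ± 0.31 SE, limma adjusted p = 6.5e-06). Ccl3 and Ccl4, chemokines that draw myeloid cells and lymphocytes, were 17.1-fold and 8.47-fold higher, and Ccl4 was lowest on replicate 3, at 8609.5, 7001 and 3003. Ccl5 was 4.87-fold higher and Xcl1, which attracts cross-presenting dendritic cells, 3.55-fold. Csf2, the growth factor GM-CSF, was above the floor on all 3 resting NK arrays and on no splenocyte chip (at least 2.77-fold higher). Such a gene was tested only if above the floor on all 3 resting NK arrays, so the filter fixed its direction. The lower factors included Lta and Ltb, the lymphotoxins that B and T cells make. Lta was at the floor on all 3 resting NK arrays, against 1055, 1528, 1588 and 1605 in splenocytes, and was at least 7.91-fold lower. Ltb gave 10129, 14312 and 6538 against 52630.2, 55750.2, 48153 and 46996. Tgfb1, which restrains NK cells, was 15.3-fold lower on 1 of its 2 tested probe sets, and the other did not pass. Ccl6, a chemokine of myeloid cells, was at least 21.8-fold lower.

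Against 17.1% higher and 21.5% lower of all genes, cytokine receptors were divided, with 7 higher, 8 lower and 7 not passed of 22 tested. Their median of 0.03 changed sign under several alternatives. Il18r1 and Il18rap, the chains of the IL-18 receptor, led the higher group at 15.7-fold and 18.6-fold. Il18r1 gave 59252, 62008 and 71368 in resting NK cells and 4472, 3629, 4679 and 3665 in splenocytes, with no overlap. Il2rb, the beta chain of the receptors for IL-2 and IL-15, gave 12790.1, 9174 and 8356 against 1922, 2422, 1919.9 and 3533 and was 4.19-fold higher (limma adjusted p = 3.3e-04), while its other probe set differed by 0.65 and did not pass. Il12rb1, part of the receptor for IL-12, was at least 5.40-fold higher. Il15ra, which presents IL-15, gave 849, 802 and 603 against 735, 234, 332 and 93.6. The Il15ra groups overlapped, and its call (limma adjusted p = 0.04) was lost without resting NK replicate 1, without resting NK replicate 2 and without splenocyte chip 2, 3 or 4, with adjusted p from 0.075 to 0.22. The chains of the interferon gamma receptor went opposite ways, with Ifngr1 3.01-fold higher and Ifngr2, at the floor on all resting NK arrays, at least 7.45-fold lower. Il6ra was at least 7.22-fold lower and Il7r, the IL-7 receptor of lymphocytes, 1.80-fold lower, though not past the threshold with every gene tested (limma adjusted p = 0.06).

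Of 27 homing and adhesion genes, 14 were higher, 8 lower and 5 did not pass, against 17.1% higher and 21.5% lower of all genes. The list's median log2 difference was 0.86. S1pr5, the sphingosine phosphate receptor that NK cells use to leave bone marrow and lymph nodes, gave 31610.1, 34747 and 38242 in resting NK cells and 477, 464, 567 and 569 in splenocytes. It was 67.3-fold higher (log2 difference 6.07 ± 0.33 SE, limma adjusted p = 7.4e-06). S1pr1, the receptor of the same ligand that T and B cells use, went the other way, at 2453, 952 and 1984 against 7409, 8306, 7485 and 7090.4 (4.53-fold lower, limma adjusted p = 0.0058). The receptors of inflamed tissue Cxcr3, Ccr2 and Cx3cr1 were 6.71-fold, 7.92-fold and 4.23-fold higher. Spn, the sialoglycoprotein CD43, was 8.18-fold higher, and Itga2, the integrin CD49b recognised by the NK antibody DX5, at least 2.95-fold. The other tested probe sets of Spn and Cx3cr1 had log2 differences of -0.68 and -0.40 and did not pass. Receptors of lymphoid follicles, T zones and gut were lower. Ccr9 was at the floor on all 3 resting NK arrays and at least 34.0-fold lower, Ccr7 was at least 28.2-fold lower and Cxcr5, which guides B cells into follicles, at least 26.3-fold. Cxcr5 gave 492, 824 and 8.10 on replicates 1, 2 and 3 and was 17.3-fold lower without replicate 3, where it was lowest.

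**Figure D3:**
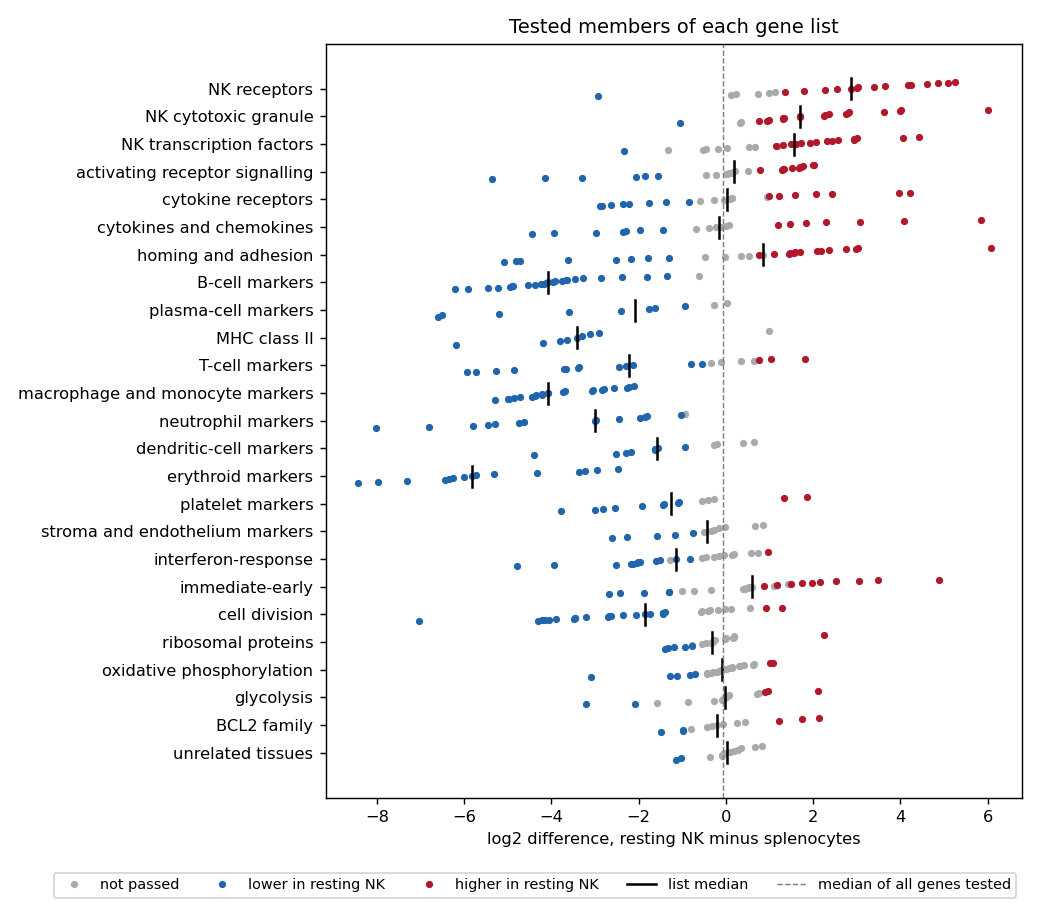
Log2 difference (resting NK minus splenocytes) of each tested member of 25 gene lists, red where higher, blue where lower and grey where not passed, with a black line for the list median and a dashed line for the median of all genes tested (-0.06). NK receptors, granule genes and NK transcription factors lie mostly to the right, and the marker lists of other spleen cells lie mostly to the left.

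Markers of B cells were lower in resting NK cells, with 24 of 25 tested lower, 1 not passed and a median of -4.08. Their summed signal was 35657 to 99234 on resting NK arrays and 600999 to 733611 on splenocyte chips. Cd79a, a signalling chain of the B-cell receptor, gave 939, 466 and 37.9 on resting NK replicates 1, 2 and 3 and 22205, 32915, 30028 and 20470.2 in splenocytes. It was at least 60.4-fold lower (limma adjusted p = 1.3e-04), or 39.1-fold without replicate 3, the only array on which it was at the floor. Cd79b, its partner chain, gave 2708, 4363 and 161 against 58948, 59554, 56926 and 50388. Ms4a1, CD20, gave 10589, 10422 and 110.3 on replicates 1, 2 and 3 against 68711, 70985, 62377 and 51126, and its large spread left it just past the threshold (log2 difference -4.54 ± 1.55 SE, limma adjusted p = 0.049). The difference was -5.52, -5.51 and -2.58 without replicates 1, 2 and 3 in turn. Ms4a1 did not pass with equalised medians, without the intensity trend, with only these groups in the fit or with every gene tested (limma adjusted p = 0.051, 0.055, 0.11 and 0.15). Ly6d and Pou2af1, a surface marker and a coactivator of B cells, were likewise lowest on replicate 3 and were 73.5-fold and at least 37.7-fold lower, or 44.3-fold and 17.4-fold without it, and Pou2af1 was at least 58.0-fold lower without replicate 1. Pax5, the B-cell identity factor, was 5.18-fold lower. Cd37, a tetraspanin that many leukocytes carry, did not pass (log2 difference -0.62) but passed in 5 alternatives, with log2 differences of -0.62 to -1.33 and limma adjusted p from 0.0053 to 0.047.

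The size of the B-cell difference moved with the array that stood apart. Without resting NK replicate 3, 24 of 25 B-cell markers were lower with a median of -3.32. On replicate 3 alone the median was -5.42, from 1 array, for which no calls are given. Genes of MHC class II, which present antigen to helper T cells, moved with them. Of 9 tested, 8 were lower and 1 did not pass, with a median of -3.41, or -5.01 with replicate 3 alone and -2.96 without it. Cd74, the invariant chain of class II molecules, gave 2829, 2692 and 554 against 125489.7, 136462, 114918 and 97002 and was 72.8-fold lower (limma adjusted p = 1.7e-04), or 42.6-fold without replicate 3. H2-Aa and H2-Eb1, class II chains, were 12.6-fold and 18.3-fold lower, or 7.92-fold and 9.06-fold without replicate 3, and H2-Eb1 was 27.4-fold lower without replicate 2. H2-Ea did not pass (limma adjusted p = 0.082), with no splenocyte chip above the floor, but passed as higher in 3 alternatives (limma adjusted p from 0.013 to 0.044). Of 10 plasma-cell genes 8 were lower. Jchain, which joins secreted antibodies, was at least 96.7-fold lower, at 507, 676 and 161 against 39938, 38098, 37656 and 37174, Igha, the constant region of IgA, 91.0-fold and Mzb1, a chaperone of antibody secretion, at least 37.0-fold, or 18.6-fold without replicate 3. Xbp1, a secretory factor that other cells use too, differed by -0.26 and passed only without resting NK replicate 2 (limma adjusted p = 0.034) and under 2 other choices of probe set.

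**Figure D4:**
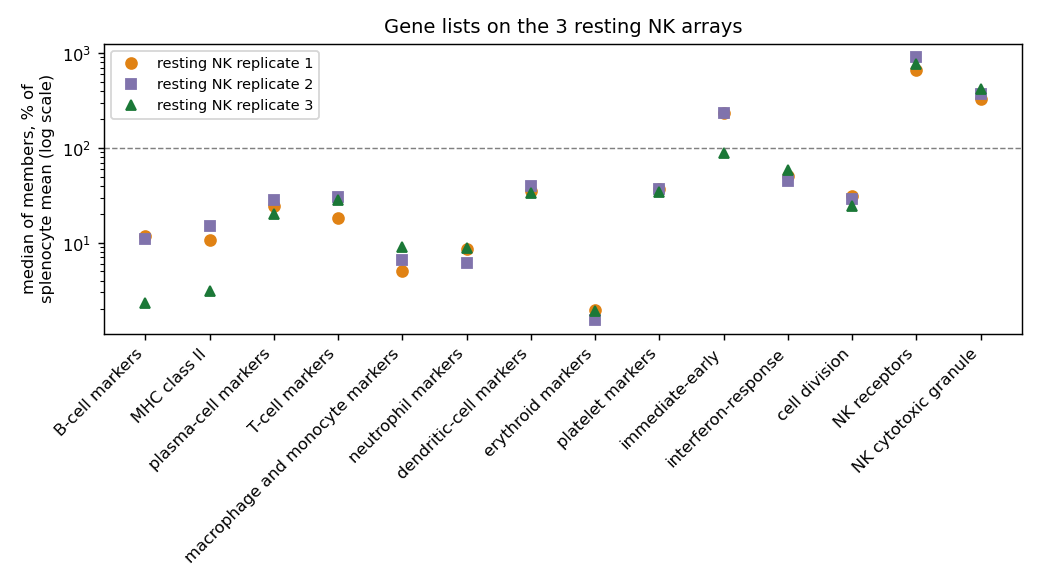
Median over list members of each resting NK array's signal as a percent of the splenocyte mean (log axis, signals below the floor set to it), for replicates 1 (circles), 2 (squares) and 3 (triangles), with a dashed line at 100%. B-cell markers stand at 11.7%, 10.9% and 2.34%, MHC class II at 10.6%, 15% and 3.10% and immediate-early genes at 232%, 235% and 87.8% on replicates 1, 2 and 3, while the other lists lie closer together.

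T-cell markers were lower more often than higher. Of 20 tested, 13 were lower, 3 higher and 4 did not pass, with a median of -2.22. The median was 0.12 over the 10 that were above the floor on all 10 arrays, a restriction chosen after seeing the data. It leaves out markers at the floor on NK arrays, such as Cd3e and Cd4, and so in part fixed that rise. The summed signal of the T-cell list was 98296 to 114834 on resting NK arrays and 142784 to 168266 on splenocyte chips. Cd3d gave 612, 943 and 293 in resting NK cells and 34497, 29053, 26977 and 26641 in splenocytes and was 52.7-fold lower (limma adjusted p = 5.1e-05). Cd4, the coreceptor of helper T cells, was at the floor on all 3 resting NK arrays and at least 10.4-fold lower. Cd8b1, a chain of the coreceptor of killer T cells, was at least 61.0-fold lower, with 1 resting NK array above the floor, and Cd5, a T-cell inhibitory receptor, at least 28.9-fold. Cd8a, the other CD8 chain, did not pass on its brightest probe set, at 2293, 517 and 4226 against 912, 944, 1220.3 and 1340.3, while the other 4 of its 5 probe sets were called lower by log2 differences from -1.80 to -5.19. Cd2, an adhesion receptor of T and NK cells, was 1.70-fold higher. Icos, a costimulatory receptor, was 3.50-fold higher on its brightest probe set, with another called lower (log2 difference -1.02), and -0.41 over the median of its probe sets. Thy1 gave 10130.3, 24029 and 7406 against 13975, 12362, 12473 and 13952, which overlapped.

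Most markers of myeloid cells were lower in resting NK cells. All 22 tested macrophage and monocyte markers were lower, with a median of -4.08, against 21.5% lower over all genes. Their summed signal was 18037 to 37843 on resting NK arrays and 337859 to 361284 on splenocyte chips. Lyz2, lysozyme of macrophages and neutrophils, gave 462, 1879 and 1424 against 50055, 38818, 36308 and 43984 and was 39.1-fold lower (limma adjusted p = 1.4e-04), or 25.7-fold without replicate 1. C1qa, a complement chain made by tissue macrophages, was at the floor on all 3 resting NK arrays and at least 31.3-fold lower. Of 15 neutrophil markers 14 were lower and 1 did not pass, with a median of -3.0 and summed signals of 2483 to 5874 against 141753 to 260391. S100a9, a calcium-binding protein of neutrophils, gave 156, 139 and 235 against 72918, 44453, 33698 and 60767 (at least 258-fold lower, limma adjusted p = 2.3e-06). Its partner S100a8 was 112-fold lower and Ngp, a granule protein, 55.4-fold. Lyz2, S100a8 and Ngp were not lowest on replicate 3, whereas Ly86, of the macrophage and monocyte list, was, at 1811, 2070.5 and 475 against 41578, 42131, 35573 and 35772 (31.9-fold lower, or 20.0-fold without replicate 3). Dendritic-cell markers were lower in 8 of 12 with a median of -1.59 and summed signals of 14817 to 19705 against 58153 to 60882. They included Wdfy4, which serves cross-presentation, at 1617, 2717 and 267 against 18880.3, 21506, 23106 and 25448, and Cst3, the protease inhibitor cystatin C, 4.90-fold lower. The other tested probe set of Wdfy4 had a log2 difference of 0.91 and did not pass.

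Erythroid genes had the lowest list median. All 15 tested were lower, with a median of -5.82, and 6 of the list were at the floor on every resting NK array. Their summed signal was 11144 to 18868 on resting NK arrays and 296917 to 388589 in splenocytes. Slc4a1, the anion exchanger of the red cell membrane, gave 28.0, 6.50 and 5.60 against 60949, 72815, 63004 and 54579.5 and was at least 348-fold lower (limma adjusted p = 1.1e-06). Alas2, which starts heme synthesis in red cells, gave 31.9, 20.7 and 11.1 against 39114, 29708, 57462 and 62933, a difference of at least 252-fold. Neither gene rose above the floor on any resting NK array. Trim10, a gene of terminal erythroid maturation, was at least 159-fold lower. Of 14 platelet genes 9 were lower, among them Ppbp and Pf4, the platelet chemokines, at at least 13.8-fold and 7.02-fold, and 2 were higher. Platelet genes summed to 5190 to 5984 against 11866 to 16912. Gp1bb, a platelet glycoprotein gene, was 3.62-fold higher on the brighter of 2 probe sets, and the other did not pass. Of 12 stroma and endothelium genes 5 were lower, among them Pecam1, an endothelial and platelet adhesion molecule, 6.11-fold lower at 446, 446 and 436 against 2674, 3096, 2479.8 and 2613, and 7 did not pass. Their summed signals were 2851 to 5527 and 7262 to 10957. Of 12 tested genes of unrelated tissues none was higher and 2 were lower, with a median of 0.03.

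Interferon-response genes were lower more often than higher. Of 23 tested, 12 were lower, 1 higher and 10 did not pass, against 21.5% lower and 17.1% higher of all genes. The list median was -1.14. Rsad2, the antiviral enzyme viperin, gave 2536, 3470.1 and 3225 in resting NK cells and 96583, 52650.5, 95844 and 105588 in splenocytes and was 27.8-fold lower (limma adjusted p = 1.5e-05). Oasl2, of the oligoadenylate synthetase family, was at least 15.3-fold lower. Ifit2, an antiviral protein that binds RNA, was the higher member, at 3479, 4012 and 3535 against 2061, 1648, 1845 and 2007 (1.95-fold, limma adjusted p = 0.0038).

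Immediate-early genes, which cells switch on within minutes of a stimulus, depended on the array. Of 27 tested, 10 were higher, 5 lower and 12 did not pass, against 17.1% higher and 21.5% lower of all genes. The list median was 0.60. Without resting NK replicate 3, 16 of the list were higher and 5 lower with a median of 1.06. In that setting 2042 of all 12543 genes were higher and 2570 lower. On replicate 3 alone, 1 array for which no calls are given, the median was -0.19. Nr4a2, an orphan nuclear receptor, gave 15566, 12312 and 1542 on replicates 1, 2 and 3 and 232, 235, 193 and 249 in splenocytes (29.5-fold higher, limma adjusted p = 0.0026, or 61.3-fold without replicate 3 and 19.3-fold without replicate 1). Fos, part of the AP-1 complex, gave 64866, 77751 and 27384 against 13882, 10094, 8967 and 14479. Replicate 3 was lowest of the resting NK arrays for both genes, yet above every splenocyte chip. Fosl2, another AP-1 subunit, was even over the arrays, at 4648, 4977 and 5319.7 against 539.7, 639.8, 568 and 672 (8.25-fold higher). Klf6, a zinc-finger factor, was 11.2-fold higher, with 3 of 5 probe sets called higher. The log2 difference was -0.11 when the median signal of the 5 on each array was taken, which is not the median of their differences. Myc, the growth regulator, and Ppp1r15a, a stress-induced phosphatase subunit, were 3.69-fold and 6.38-fold lower.

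Cell division genes were lower in resting NK cells. Of 31 tested, 21 were lower, 2 higher and 8 did not pass, against 21.5% lower and 17.1% higher of all genes. The list median was -1.85. Ube2c, the ubiquitin-conjugating enzyme of mitotic exit, gave 237, 155 and 76.5 on resting NK arrays and 27829, 21814, 25829 and 28486 on splenocyte chips and was at least 131-fold lower (limma adjusted p = 4.1e-06). Mki67, the proliferation antigen, was 11.2-fold lower, at 4625, 4229 and 2309 against 41089, 35818, 33895 and 50605. Ccna2, cyclin A2, and Birc5, survivin, were 18.7-fold and 19.8-fold lower. Mcm4 and Mcm5, subunits of the replicative helicase, were the higher members, at 1.30 and 0.91 on the log2 scale. Both rest on probe sets of the kind that can bind related transcripts, and their other probe sets gave -0.27 and -0.95. Without such probe sets 24 of 30 tested genes were lower and none higher.

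Metabolic and ribosomal genes lay near the median of all genes, of which 17.1% were higher and 21.5% lower. The lower share of oxidative phosphorylation genes and the higher share of glycolysis genes were near these. Of 25 genes of oxidative phosphorylation 2 were higher, 5 lower and 18 did not pass, with a median of -0.08. Atp5g1, a subunit of ATP synthase, was 8.51-fold lower. Of 17 glycolysis genes 3 were higher, 2 lower and 12 did not pass, with a median of -0.02. Pfkp, a phosphofructokinase, was 4.32-fold higher, at 17497, 24307 and 14985 against 4265, 4013, 4143 and 4766, and Slc16a1, a lactate transporter, 9.20-fold lower, at 1615, 1909 and 1437 against 14633, 12992, 16445 and 16685. The signs of both list medians changed under some alternatives. Of 18 ribosomal protein genes 1 was higher, 5 lower and 12 did not pass, with a median of -0.33. Rps24 was 2.65-fold lower, though not past the threshold without probe sets that can bind related transcripts (limma adjusted p = 0.07), and Rpl27a 4.75-fold higher.

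Of 13 tested BCL2 family members, which set the threshold of apoptosis, 3 were higher, 3 lower and 7 did not pass, which is near the 17.1% higher and 21.5% lower over all genes. Bcl2, which keeps lymphocytes alive, gave 18449, 15941 and 41706 against 10547, 8965, 8723 and 11826 and was 2.32-fold higher (limma adjusted p = 0.029). It did not pass with only these groups in the fit or with every gene tested (limma adjusted p = 0.075 and 0.10), and 3 of its 5 probe sets were not called. Mcl1, the survival factor that NK cells need, gave 29572, 51374 and 39857 against 49715, 49232, 49843 and 46256 and did not pass. Bcl2l11, the death-promoting protein Bim, was 4.39-fold higher on its brightest probe set. Its 5 probe sets ran from -0.85 to 2.13, with 3 called higher. The log2 difference was -0.10 when their median signal on each array was taken, which can rest on different probe sets in the groups. Bak1, a pore-forming death effector, was 2.83-fold lower.

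**Figure D5:**
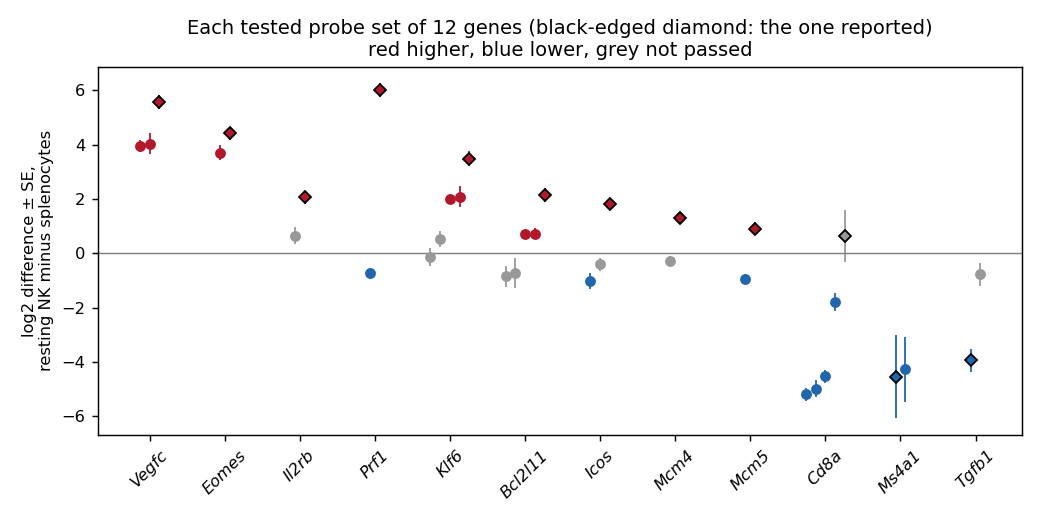
Log2 difference (resting NK minus splenocytes, error bars ± SE) of each tested probe set of 12 genes fitted singly, with the reported probe set as a black-edged diamond and red for higher, blue for lower and grey for not passed. The probe sets of Vegfc and Eomes all lie above 0, whereas those of Prf1, Icos and Mcm5 are called in opposite directions and 4 of the 5 of Cd8a are called lower.

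Several of the largest differences lay outside the lists. Vegfc, a growth factor of lymphatic vessels, gave 6260.2, 9808 and 10164 in resting NK cells and was at the floor on all 4 splenocyte chips. Its signal was at least 47.5-fold higher, with a limma adjusted p of 3.2e-06. All 3 of its probe sets were called higher. Clnk, an adaptor of the SLP-76 family, gave 5666, 6915 and 7269 against 246, 170.3, 169.6 and 226 (at least 31.9-fold higher, limma adjusted p = 3.5e-06). Styk1, a receptor-like kinase, Gas7 and Klhl30 were at least 22.7-fold, at least 27.8-fold and at least 24.1-fold higher, and with the median of its probe sets Gas7 did not pass (limma adjusted p = 0.18). Klhl4, Tmsb15a, a thymosin that binds actin, and Gpc1, a surface proteoglycan, were above the floor on no splenocyte chip and at least 14.8-fold, at least 14.2-fold and at least 13.1-fold higher. Like Vegfc, they could be tested only because all 3 resting NK arrays were above the floor. Their direction and lack of overlap were thus fixed by the filter. Klhl4 varied, at 2353, 1599 and 5023, while Tmsb15a did not, at 2592, 2624 and 2431. On the lower side Cdr2 was at least 127-fold lower, Gda, guanine deaminase, at least 104-fold, and Aqp1, the water channel of red cells and vessels, at least 92.1-fold. Cldn13, a claudin of erythroid cells, was at the floor on all 3 resting NK arrays and at least 51.7-fold lower.

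The genes with the largest SD over the resting NK arrays included Xist, Ms4a1, Cd24a, Scd1 and Kcnh3, given here as a description. Cd24a, a surface marker of B cells and red cell precursors, gave 6028, 7982 and 158 on replicates 1, 2 and 3 against 139614, 91941, 123768 and 124261. Scd1, a fatty acid desaturase, gave 4179, 3816 and 87.8 against 32393, 31179, 29297 and 29604. Both were at the floor on replicate 3 only. Kcnh3, a potassium channel, ran 4581, 611 and 25112 against 531, 697, 483 and 552 and did not pass (limma adjusted p = 0.11). It passed in some alternatives, among them without resting NK replicate 2 (log2 difference 4.26, limma adjusted p = 0.0042). Of 4993 called genes, 91 had an SD above 1 on the log2 scale over the resting NK arrays, 78 of them lower and 13 higher. That count was in part fixed, since the call weighs this spread and the floor leaves none in 346 lower genes. Of the genes with several tested probe sets, 316 of 1460 called higher and 78 of 1296 called lower had another probe set called the opposite way. How far the choice of the brightest probe set shaped these counts was not tested. All probe sets had the same call in only 236 of the 1460 and 523 of the 1296. They had the same sign in 660 and 926.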

How the data were processed

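Splenic RNA was hybridised to 1-colour MOE430_2 arrays. The authors deposited a linear signal intensity for every probe set. Per the submitters' processing notes, GCOS 1.4 was used. The summary algorithm and target intensity were not given in the sources used here. The mean after trimming 2% at each end was the same on all arrays, so no scaling was added. Such scaling gives relative levels and hides differences in the RNA content of cells.

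A floor of 179.85 was taken, the median of the 10 arrays' 40th percentiles. GEO's platform annotation gave 34945 probe sets 1 gene symbol, 932 several and 9160 none, and 64 controls were left out. By Entrez ID 34741 matched the RefSeq table of GRCm38.p6. The brightest probe set by mean log2 signal over all 10 arrays stood for a gene. A gene was tested if above the floor on at least 3 of the 7 arrays. Folds are ratios of geometric means.

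The test was limma's, version 3.58.1, in R 4.3.3 (lmFit and a trended eBayes, 2-sided, Benjamini-Hochberg over 12938 genes, threshold 0.05) on log2 signals, with 1 variance per gene over all 3 groups. The 4 chips were averaged into 2 samples in each of the 3 ways they can be paired, keeping the largest p. The fit was tested on simulated data: it makes too many calls where the spread differs between groups, as for genes at the floor in 1 group. The number of arrays limits the precision.

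The comparison and the gene lists were chosen with earlier results of these data known. Genes named by rule are 17 fixed genes, the largest differences each way, up to 4 members per list and the 8 largest SDs over resting NK arrays. Among the fixed genes, some are not reported here. Other list members, and the promoters shown, were chosen after their values were seen. Motifs were sought on both strands in 250 bases before each start.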

Additional observations from a re-analysis of the deposited data

Results flagged for a closer look

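Among the 150 genes named in the text and tested that were not level over the 4 splenocyte chips, 8 had 1 chip set apart from the other 3. For 4 independent, normally spread values chance sets apart about 1 in 20 groups. These chips are 2 samples with 2 chips each, and some lay at the floor, so that rate need not hold here. The gap to the nearest chip, as a share of the range, was 0.911 for Dok2, which gave 2284 on chip 4, and 0.869 for Cx3cr1, which gave 526 on the same chip. It was 0.835 for Mcl1, with 46256 on chip 4, and 0.861 for Rsad2, with 52651 on chip 2 where the others ran from 95844 to 105588. It was 0.897 for Nfil3 and 0.883 for Lta, which gave 379 and 1055 on chip 1. For Gas7 and Klhl30 it was 1, since 3 chips were at the floor and chip 1 or chip 4 was just above it. The calls of these genes did not change when the chip was left out. The causes were not tested.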

How the results depend on the processing

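Over 20 alternatives, 118 of the 138 named genes that passed kept their direction and their call in every alternative that tested them. Not all were tested in each: 133 were without any 1 resting NK array and 131 with resting NK replicate 3 alone. Over genes above the floor on all 10 arrays 78 were. A gene that was not tested could not lose its call. The count of lower genes was 1766 when only genes above the floor on all 10 arrays were tested, a restriction chosen after seeing the data that leaves 8749 genes, and 2120 were higher. Leaving out 1 array at a time gave 1922 to 2396 higher and 2519 to 2792 lower genes. The fit with a replicate block, which pairs same-numbered NK arrays, gave 2223 higher and 2785 lower genes and changed no call of a named gene. Deviations of same-numbered resting and IL-15 arrays correlated at 0.09, 0.27 and 0.06. Differently numbered pairs gave -0.21 to 0.14, the highest for resting NK replicate 3 with IL-15 replicate 1. With each gene's probe sets summarised by their median signal on each array, Icos (-0.41), Klf6 (-0.11), Mcm5 (-0.95) and Bcl2l11 (-0.10) turned their sign. That summary can rest on different probe sets in the groups, so a turned sign need not be the sign of most probe sets. Without probe sets that can bind related transcripts Mcm5 (-0.95) and Mcm4 (-0.27) turned their sign. The T-cell median turned to 0.12 over genes above the floor on all arrays, a restriction that leaves out T-cell markers at the floor in NK cells. Of 25 lists, 18 kept the sign of their median in every alternative. Signals at the floor bound differences from below only, the 2-cycle and 1-cycle amplifications cannot be told apart from the groups, and the causes of these changes were not tested.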

Other observations

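The mark that set resting NK replicate 3 apart was also present on the IL-15 array of the same number. Xist gave 30039, 33494 and 289 and Eif2s3y 8.8, 2.7 and 12705 on IL-15 NK replicates 1, 2 and 3. Kdm5d, another gene of the Y chromosome, gave 3140 on resting NK replicate 3 and 724 on IL-15 NK replicate 3, against 2.9 to 160 on the splenocyte chips.

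The B-cell signal did not follow this mark on the IL-15 arrays. Ms4a1 gave 150, 142 and 107 on IL-15 NK replicates 1, 2 and 3, all below the floor, where resting replicates 1 and 2 gave 10589 and 10422. The median B-cell marker was at 1.46%, 1.46% and 1.61% of its splenocyte level there, near the 2.34% of resting NK replicate 3. The median MHC class II gene was at 1.06%, 0.849% and 0.714%. Cell division genes had medians of 216%, 182% and 164% on the IL-15 arrays and of 31.2%, 28.8% and 24.5% on the resting NK arrays.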
